A study of Mus musculus with 7 samples.

Results

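Neurons were compared here by 8 genes that make, load or break down 3 small transmitters, GABA, glutamate and dopamine. The members were the rows of the deposited table whose gene symbol was Gad1, Gad2, Slc32a1, Abat, Slc17a6, Th, Ddc or Slc18a2. All 8 were found among 18331 uniquely named genes, and all 8 were among the 13845 genes tested. RNA came from mouse hypothalamus at E15.5 (the embryonic age in days), from neurons that were dissociated from the arcuate nucleus and sorted by fluorescence. One group was Pomc neurons (4 libraries), which make the precursor of appetite-suppressing peptides, and the other was Npy neurons (3 labelled samples), which make the appetite-stimulating peptide neuropeptide Y. Every group was of the same age, and no treatment was labelled. The labels name no strain, no reporter for the sort and no animals behind a library. P-values therefore cover the spread between these libraries alone, and that spread may be technical. The column of Npy replicate 3 is a whole percentage (95 to 105) of the mean of Npy replicates 1 and 2 in all 15223 genes with a value, and it was left out, which leaves 4 Pomc and 2 Npy libraries.

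GABA is made from glutamate by the glutamate decarboxylases GAD67 (Gad1) and GAD65 (Gad2), is loaded into synaptic vesicles by VGAT (Slc32a1) and is broken down by GABA transaminase (Abat). Glutamate needs no special enzyme to be made, so a neuron that releases it is recognised by a vesicular transporter, in the hypothalamus mostly VGLUT2 (Slc17a6). Dopamine is made by tyrosine hydroxylase (Th), the rate-limiting step, and aromatic amino acid decarboxylase (Ddc), and is loaded by VMAT2 (Slc18a2). In the adult arcuate nucleus, neurons that make Npy and Agrp release GABA, Pomc neurons include cells that release glutamate and cells that release GABA, and a separate set of neurons makes dopamine.

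Values were taken as TPM, a transcript level corrected for gene length and for the total of its library. The deposited table names no unit, and setting levels of different genes side by side rests on this reading. Slc17a6 was 16.7-fold higher in Pomc than in Npy neurons by the ratio of mean TPM, and it was the 1 member of 8 that passed the test. Gad1, Gad2 and Slc32a1 were each between 2.61-fold and 2.96-fold higher by mean TPM in Npy replicates 1 and 2 and Th was 9.83-fold higher. Slc18a2 was 3.62-fold higher there. For these 5 genes every Pomc library lay below both Npy libraries, as in 7.86% of all tested genes, but none of them passed the test over all genes. Abat, the enzyme that breaks GABA down, and Ddc overlapped between the groups.

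The start regions of 5 members are shown as examples of each transmitter: the glutamate transporter, which passed the test, the main GABA enzyme and transporter, and a dopamine pair, which did not pass. Each is the RefSeq window on GRCm38.p6 from 250 bases before to 50 bases after the annotated start, in the gene's own direction, and 7 of the 8 members matched the table, with 9 windows. The GENCODE spans of Gad1 and Th given with the values begin upstream of these windows. Capitals mark letter matches on either strand. One motif was the cAMP response element, TGACGTCA. The homeodomain core was searched as TAATTA. The nuclear receptor site was searched as AAGGTCA. The TATA box was searched as TATAAA. E-boxes, searched as CANNTG, were counted but not marked.
Slc17a6 (chr7:51621580-51621879, plus strand): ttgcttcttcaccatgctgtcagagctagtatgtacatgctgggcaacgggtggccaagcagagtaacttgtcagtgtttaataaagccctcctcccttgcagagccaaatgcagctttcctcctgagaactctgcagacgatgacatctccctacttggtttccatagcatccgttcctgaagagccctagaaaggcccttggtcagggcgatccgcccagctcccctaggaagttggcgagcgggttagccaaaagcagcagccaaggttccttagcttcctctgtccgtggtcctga
Gad1 (chr2:70561879-70562178, plus strand): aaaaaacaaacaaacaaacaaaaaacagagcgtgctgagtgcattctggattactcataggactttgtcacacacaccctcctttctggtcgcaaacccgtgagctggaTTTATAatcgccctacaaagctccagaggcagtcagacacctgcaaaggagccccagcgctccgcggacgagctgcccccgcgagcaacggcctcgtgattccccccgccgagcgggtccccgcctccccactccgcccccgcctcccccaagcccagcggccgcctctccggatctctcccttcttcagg
Slc32a1 (chr2:158610508-158610807, plus strand): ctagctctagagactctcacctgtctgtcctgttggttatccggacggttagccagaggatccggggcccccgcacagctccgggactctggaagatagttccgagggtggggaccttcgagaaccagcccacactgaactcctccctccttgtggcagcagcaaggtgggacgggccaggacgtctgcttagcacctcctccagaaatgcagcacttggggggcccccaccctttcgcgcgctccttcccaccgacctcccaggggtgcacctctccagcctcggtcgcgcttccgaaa
Th (chr7:142899946-142900245, minus strand): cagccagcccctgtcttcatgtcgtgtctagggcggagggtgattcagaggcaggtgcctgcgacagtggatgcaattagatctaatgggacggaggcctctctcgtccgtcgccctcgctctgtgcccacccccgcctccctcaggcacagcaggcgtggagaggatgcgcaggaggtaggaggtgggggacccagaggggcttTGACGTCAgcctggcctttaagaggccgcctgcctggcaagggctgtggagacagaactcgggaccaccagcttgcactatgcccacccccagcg
Slc18a2 (chr19:59260628-59260927, plus strand): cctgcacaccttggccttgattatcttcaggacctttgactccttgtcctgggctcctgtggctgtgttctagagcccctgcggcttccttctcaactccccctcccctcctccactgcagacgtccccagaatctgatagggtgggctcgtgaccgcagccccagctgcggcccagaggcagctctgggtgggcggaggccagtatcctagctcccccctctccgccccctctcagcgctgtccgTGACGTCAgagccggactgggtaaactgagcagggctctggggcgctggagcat

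The full cAMP response element stood in the windows of Th, at position -45 from the start, and of Slc18a2, at position -4, and in no other member's window. Of all 32851 windows, 1.79% hold it. Gad1 held a TATA box letter match on the opposite strand at position -141, where 13.62% of all windows hold 1 on either strand. The window of Slc17a6 printed above held none of the marked letters, and a second annotated window of the gene, which begins further downstream, held TAATTA at position -81 (5.29% of all windows). A site for nuclear receptors was found in a window of Ddc, where it overlapped a TATA box match (4.72% and 13.62% of all windows). E-boxes were present in 6 of the 7 matched members and in 72.31% of all windows. These are letter matches in a short window and describe the sequence alone. The windows of Slc32a1 and Th had a GC content of 63.3% and 64.3% and that of the printed Slc17a6 window was 53.7%, beside a median of 52.7% over all windows.

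The libraries were checked against the genes that name them. Pomc reached 352 to 770 TPM over the 4 Pomc libraries and 24.0 and 59.4 TPM in Npy replicates 1 and 2. Npy reached 728 and 513 TPM in Npy replicates 1 and 2 and 2.11 to 152 TPM over the 4 Pomc libraries. The groups thus did not overlap in either gene. Pomc passed the test over all genes (limma adjusted p = 0.00454), but Npy did not (limma adjusted p = 0.418). Agrp was low, at 0 to 6.82 TPM over the 4 Pomc libraries and 5.53 and 1.75 TPM in Npy replicates 1 and 2. Its groups overlapped (limma adjusted p = 0.927). The 10 pan-neuronal marker genes summed to 5449 to 6489 TPM in Pomc and to 4817 and 3942 TPM in Npy replicates 1 and 2, and none of the 10 passed by limma (4 at an unadjusted p under 0.05). The 8 oligodendrocyte lineage markers summed to 285 and 247 TPM in Npy replicates 1 and 2 against 61.8 to 84.8 TPM in Pomc. Among them Olig2 and Cspg4 were listed at 0 in all 4 Pomc libraries. By limma 6 of the 8 were called higher in the Npy libraries, as were 0.123% of all tested genes. That count fell to 1, 2 and 2 without Pomc replicate 1, 2 or 3, and without Npy replicate 1 or 2 it was 0 of the 3 markers that then met the filter. Of 7 microglia markers 2 were tested and none passed by limma (C1qb had an unadjusted p under 0.05), and their sum ran from 0 to 43.0 TPM over the 4 Pomc libraries, with the highest value in Pomc replicate 4 (P2ry12 at 22.7 TPM there and 0 elsewhere). Of 10 radial glia and astrocyte markers 8 were tested and none passed by limma. At an unadjusted p under 0.05 there were 2, beside 7.36% of all tested genes. In 3 the groups did not overlap, with Npy higher, as in 7.86% of all tested genes. Fabp7 ran from 1.61 to 61.6 TPM in Pomc and reached 323 and 176 TPM in Npy replicates 1 and 2 (log2 -3.89 ± 1.00, adjusted p = 0.272), and Nes at 14.6 to 26.4 TPM and at 49.0 and 40.1 TPM (adjusted p = 0.418). The summed level, most of it Vim in the Pomc libraries, was 292 to 659 TPM in Pomc and 635 and 421 TPM in Npy replicates 1 and 2. Markers of endothelial cells, fibroblasts and pituitary cells summed to at most 11.7 TPM per list in any library, and those of red blood cells reached 71.8 TPM in Pomc replicate 4. Short RNA genes took 9.40 to 12.1% of the total in the Pomc libraries and 13.1% and 15.9% in the Npy libraries. Fabp7, Nes and the oligodendrocyte genes were thus higher in the same libraries as Gad1, Gad2, Slc32a1 and Th. The part of these glial genes and of the short RNA genes in the results below was not tested, except that each fold change is also given in the sensitivity section after rescaling without the short RNA genes. In sorted bulk RNA, fewer cells that express a gene and less of its RNA per cell cannot be told apart.

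**Figure D1:**
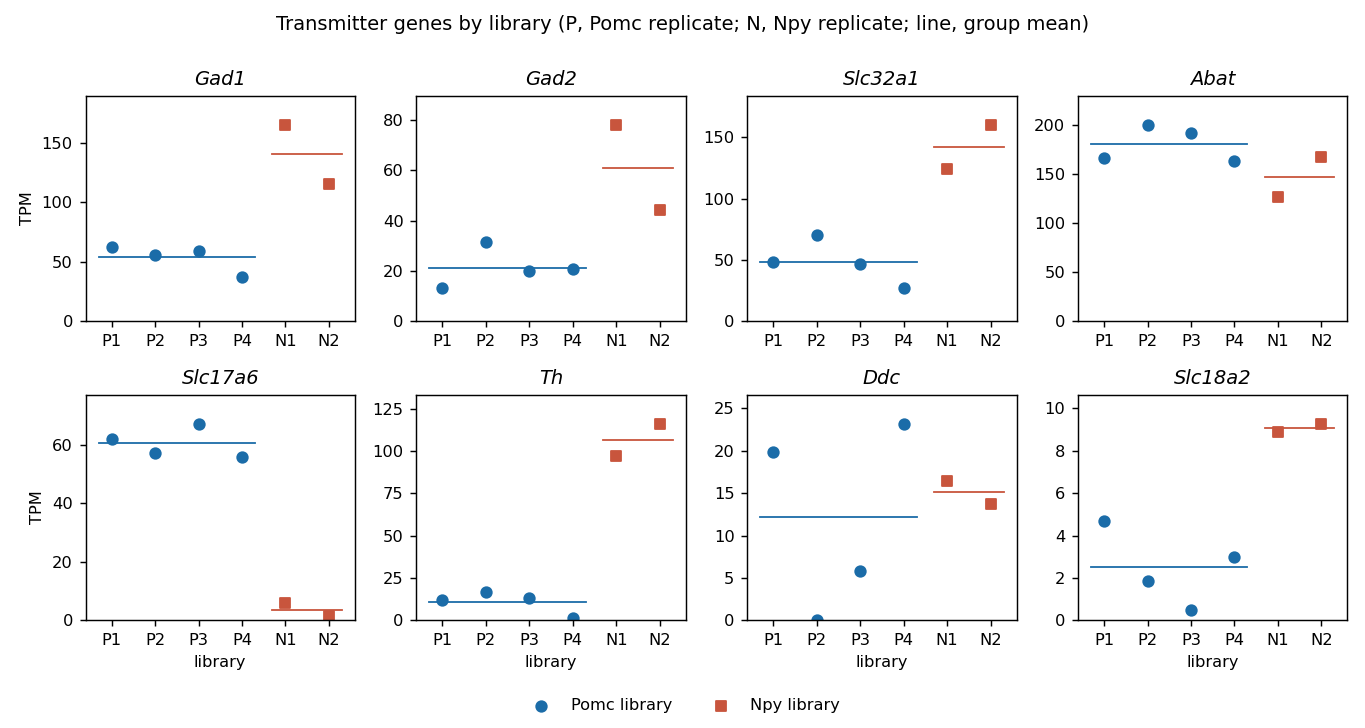
TPM (vertical axis, linear from 0, scaled per gene) of the 8 members in each library (horizontal axis); circles are Pomc replicates 1 to 4, squares Npy replicates 1 and 2, and lines are group means. The groups are apart in Gad1, Gad2, Slc32a1, Slc17a6, Th and Slc18a2 and overlap in Abat and Ddc.

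Slc17a6 (chromosome 7, 51622006 to 51671119, plus strand, GRCm38) encodes VGLUT2, which fills synaptic vesicles with glutamate. It stood at 62.0, 57.3, 67.0 and 55.9 TPM in Pomc replicates 1 to 4, and at 5.85 and 1.43 TPM in Npy replicates 1 and 2. The 4 Pomc libraries lay close together, at 60.6 ± 5.04 TPM (SD, n = 4), and the groups were far apart, with Npy replicate 1 the higher of the Npy pair. The log2 fold change, Pomc minus Npy on log2(TPM + 1), was 3.91 ± 0.45 (SE), with a 95% confidence interval of 2.91 to 4.92 and a limma adjusted p of 0.0066 over all 13845 genes. Genes called higher in Pomc neurons made up 0.289% of all tested genes, those called higher in Npy neurons 0.123% and those called in either direction 0.412%. The exact permutation test over the 15 splits of 4 against 2 libraries, two-sided, gave 0.0667, the smallest value it can give. The call was kept with any 1 of the 6 libraries left out, at adjusted p of 0.00281 to 0.0407 by limma, and the fold change was 4.66 without Npy replicate 1 and 3.17 without Npy replicate 2.

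The other vesicular glutamate transporters were low. Slc17a8, which encodes VGLUT3, reached 1.31, 1.55, 0.567 and 0.938 TPM in Pomc replicates 1 to 4 and 4.01 and 2.42 TPM in Npy replicates 1 and 2 (limma adjusted p = 0.807). Slc17a7, which encodes VGLUT1, the main transporter of the cerebral cortex, was listed at 0 in all libraries except Npy replicate 1, at 4.14 TPM. Npy replicate 1 also held genes of cortical glutamatergic neurons: Neurod6 was at 53.4 TPM, Neurod2 at 26.8 TPM and Tbr1 at 18.4 TPM there. In Npy replicate 2 the same genes were at 0, 0 and 3.38 TPM, and in the Pomc libraries none of the 3 exceeded 6.02 TPM. These values stand beside the higher Slc17a6 of Npy replicate 1, and their part in it was not tested.

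No gene that feeds or clears glutamate passed the test. Of 13 such genes chosen with Slc17a6, 11 were tested over all genes, and 1 of them, Glul, had an unadjusted p under 0.05. Their median log2 fold change was 0.08, beside 0.015 for all tested genes. Got2, the mitochondrial aspartate aminotransferase, stood at 129 ± 25.3 TPM in Pomc and at 121 and 119 TPM in Npy replicates 1 and 2. Slc38a1 and Slc38a2, glutamine transporters, had 124 ± 10.9 and 103 ± 19.6 TPM over the 4 Pomc libraries (SD, n = 4). In Npy replicates 1 and 2 Slc38a1 had 137 and 106 TPM, and Slc38a2 had 78.3 and 89.5 TPM. Slc1a3, the glutamate transporter of astrocytes and radial glia, had with Slc17a8 the largest fold changes of the list, at -1.05 ± 0.92 and -1.01 ± 0.64 on the log2 scale. The single gene of the list whose Pomc libraries all lay above both Npy libraries was Glul, glutamine synthetase, at 68.2 to 86.5 TPM against 51.9 and 54.3 TPM (limma adjusted p = 0.65).

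Gad1 (chromosome 2, 70553072 to 70602014, plus strand) encodes GAD67, the enzyme that makes most of the GABA in the brain. It stood at 62.2, 56.0, 59.2 and 37.0 TPM in Pomc replicates 1 to 4 and at 165 and 115 TPM in Npy replicates 1 and 2. All Pomc libraries lay below both Npy libraries, with Pomc replicate 4 the lowest. The log2 fold change was -1.38 ± 0.28 (95% confidence interval -2.0 to -0.75), with an unadjusted p of 0.000728 and a limma adjusted p of 0.111. Gad1os, an RNA from the opposite strand that overlaps Gad1, reached at most 8.71 TPM. No source used here says whether reads were counted by strand.

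Gad2 (chromosome 2, 22622205 to 22693874, plus strand) encodes GAD65, the form of the enzyme that sits on synaptic vesicles. It stood at 13.0, 31.6, 20.1 and 20.6 TPM in Pomc replicates 1 to 4 and at 78.0 and 44.2 TPM in Npy replicates 1 and 2. The groups did not overlap, but Npy replicate 2 lay closer to the highest Pomc library, replicate 2, than to Npy replicate 1. Its log2 fold change was -1.48 ± 0.41 (limma adjusted p = 0.335).

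Slc32a1 (chromosome 2, 158610767 to 158615748, plus strand) encodes VGAT, which loads GABA and glycine into vesicles. It stood at 48.1, 70.2, 46.8 and 26.9 TPM in Pomc replicates 1 to 4 and at 124 and 160 TPM in Npy replicates 1 and 2. All Pomc libraries lay below both Npy libraries, and the values of the Pomc libraries spread widely. On the log2 scale the difference was -1.61 ± 0.35 (95% confidence interval -2.40 to -0.82, limma adjusted p = 0.151). The exact permutation test gave 0.0667, its smallest value, for each of Gad1, Gad2 and Slc32a1.

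The levels of the GABA genes are set beside that of Npy in the Pomc libraries. Pomc replicate 2 had the lowest Npy level of the Pomc libraries, 2.11 TPM, and the highest levels of Slc32a1 (70.2 TPM) and Gad2 (31.6 TPM). Pomc replicate 1 had the highest Npy level, 152 TPM, the highest Gad1, 62.2 TPM, and the lowest Gad2, 13.0 TPM. Where this RNA came from was not tested. Gad1 ranked between the 57.4 and the 75.9 percentile of the genes above 0 in the Pomc libraries, and at 92.6 and 86.8 in the Npy libraries.

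Abat (chromosome 16, 8513429 to 8621568, plus strand) encodes GABA transaminase, the mitochondrial enzyme that degrades GABA. It was the most abundant member in the Pomc libraries, at 166, 200.1, 192 and 164 TPM in replicates 1 to 4, and it stood at 126 and 168 TPM in Npy replicates 1 and 2. The groups overlapped, since Npy replicate 2 lay above Pomc replicates 1 and 4. Its log2 fold change was 0.30 ± 0.19, with a 95% confidence interval of -0.13 to 0.74 and a limma adjusted p of 0.807. A difference of 1 log2 unit in either direction lies outside this interval.

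The other genes of GABA handling did not pass either. Of 9 chosen, 8 were tested, none had an unadjusted p under 0.05 by limma, 5 had log2 fold changes below 0 and 3 above, and the median was -0.13. The largest fold change of the list was that of the antisense RNA Gad1os (-1.06 ± 1.00). Aldh5a1, which acts after Abat in the breakdown of GABA, was at 19.4 to 34.5 TPM over the 4 Pomc libraries, below the 36.0 and 44.6 TPM in Npy replicates 1 and 2, and its groups did not overlap (adjusted p = 0.818). Slc6a13, a GABA transporter of the meninges and liver, was listed at 0 in all 6 libraries.

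**Figure D2:**
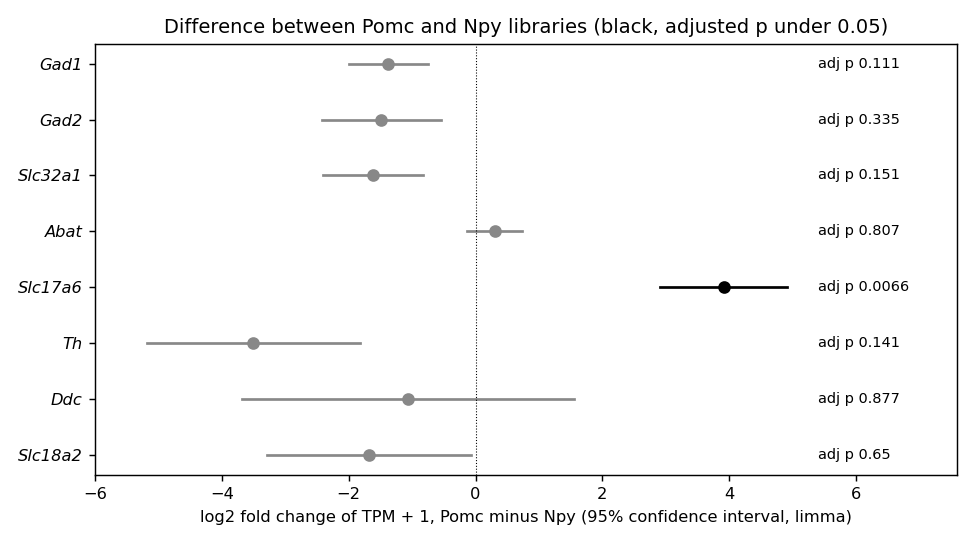
Log2 fold change on TPM + 1 (horizontal axis, Pomc minus Npy) of each member (vertical axis), with 95% confidence intervals from the limma fit and the adjusted p at the right. Slc17a6 (black) passed the threshold, and the intervals of Abat and Ddc include 0.

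Th (chromosome 7, 142892752 to 142931128, minus strand) encodes tyrosine hydroxylase, which catalyses the rate-limiting step of dopamine synthesis. It stood at 12.1, 16.7, 13.1 and 1.42 TPM in Pomc replicates 1 to 4 and at 96.8 and 116 TPM in Npy replicates 1 and 2. All Pomc libraries lay far below both Npy libraries, and Pomc replicate 4 lay apart from the other Pomc libraries. The log2 fold change was -3.50 ± 0.74 (95% confidence interval -5.18 to -1.83, limma adjusted p = 0.142). Without Pomc replicate 4 it was -2.85 ± 0.31 with an adjusted p of 0.0099. With a pseudocount of 5 in place of 1 the adjusted p was 0.0396. Pomc replicate 4, with its microglia marker values, also had the lowest Gad1 and Slc32a1.

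Ddc (chromosome 11, 11814101 to 11898144, minus strand) encodes the decarboxylase that turns L-DOPA into dopamine and also makes serotonin. It stood at 19.9, 0, 5.79 and 23.1 TPM in Pomc replicates 1 to 4 and at 16.4 and 13.8 TPM in Npy replicates 1 and 2. The Pomc libraries spanned the Npy libraries on both sides, and the log2 fold change of -1.07 ± 1.16 had an interval of -3.69 to 1.55 (limma adjusted p = 0.877). The 0 in Pomc replicate 2 means that the gene is listed at 0, and without this library the log2 fold change was -0.09 ± 0.65. Of 4988 tested genes with a mean of 5 to 30 TPM, 10.8% were listed at 0 in at least 1 of the 6 libraries and 1.98% in Pomc replicate 2.

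Slc18a2 (chromosome 19, 59260896 to 59296012, plus strand) encodes VMAT2, which loads dopamine and other monoamines into vesicles. It was the member with the lowest mean over the Pomc libraries, at 4.66, 1.87, 0.503 and 3.00 TPM in replicates 1 to 4, and stood at 8.89 and 9.25 TPM in Npy replicates 1 and 2. The groups did not overlap. The log2 fold change of -1.68 ± 0.71 had an unadjusted p of 0.0422 and a limma adjusted p of 0.65, and the exact permutation test gave 0.133.

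Like Th, Ddc and Slc18a2, none of the further genes of monoamine synthesis or transport passed the test. Of 19 chosen, 17 were in the table and 9 were tested, none passed by limma (1, Hdc, at an unadjusted p under 0.05), and 8 of the 9 had log2 fold changes above 0. Gch1, which makes the cofactor that Th needs, stood at 8.53, 3.92, 4.98 and 1.16 TPM in Pomc replicates 1 to 4 and at 2.44 and 0.422 TPM in Npy replicates 1 and 2. Its log2 fold change of 1.17 ± 0.79 was thus opposite in sign to that of Th and did not pass (limma adjusted p = 0.814). Hdc, which makes histamine, was at 4.64 to 12.03 TPM over the 4 Pomc libraries, above the 2.61 and 0 TPM in Npy replicates 1 and 2 (log2 2.17 ± 0.75, adjusted p = 0.526). Slc6a3, the dopamine transporter of the cell membrane, and Tph2, the serotonin enzyme of brain neurons, were listed at 0 in all 6 libraries. Of 6 genes of acetylcholine and glycine use, 3 were tested and none passed by limma, also without adjustment, with the largest fold changes in Slc6a9 (0.78 ± 0.78), a glycine transporter, and Slc5a7 (0.65 ± 0.82), the choline transporter. Chat, which makes acetylcholine, was listed at 0 in every library used. Slc18a3, its vesicular transporter, was at 17.9 TPM in Npy replicate 2 and at most 0.409 TPM in the other libraries.

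**Figure D3:**
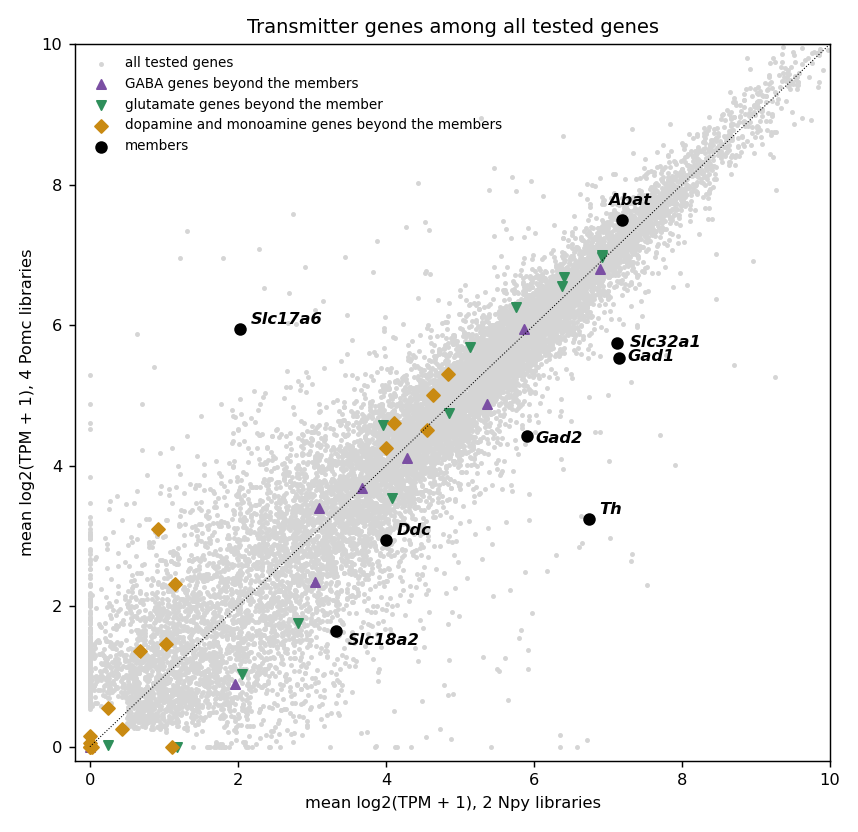
Mean log2(TPM + 1) over the 2 Npy libraries (horizontal axis) against that over the 4 Pomc libraries (vertical axis) for all tested genes (grey), the members (black) and the other genes of each pathway (coloured); genes above 10 on an axis are outside the frame. Slc17a6 lies above the line of equal levels, Th, Gad1, Gad2 and Slc32a1 lie below it, and the other pathway genes with high levels lie near it.

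Over the members, 6 of 8 had groups that did not overlap, as had 15.9% of all tested genes. In 5 of them (Gad1, Gad2, Slc32a1, Th and Slc18a2) all Pomc libraries were lower, as in 7.86% of all tested genes. In 1 of them, Slc17a6, all Pomc libraries were higher, as in 8.05% of all tested genes. At an unadjusted p under 0.05 there were 6 of 8 members and 7.36% of all tested genes. The median log2 fold change of the members was -1.43 and that of all tested genes 0.015. The members were chosen with earlier results of these data known, so these counts describe the list.

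The order of the levels differed between the groups. By mean TPM over the 4 Pomc libraries Abat came first at 181, followed by Slc17a6 at 60.6, Gad1 at 53.6 and Slc32a1 at 48.0. Values of the last 3 overlapped between libraries. Gad2 at 21.3, Ddc at 12.2 and Th at 10.8 followed with overlapping values, and Slc18a2 at 2.51 came last. In the Npy libraries Abat, Slc32a1 and Gad1 had means of 147, 142 and 140.1 TPM and overlapped, Th had 106 TPM and Gad2 61.1 TPM. Ddc at 15.1, Slc18a2 at 9.07 and Slc17a6 at 3.64 TPM were the lowest. By mean TPM alone, Slc17a6 was thus second in Pomc and last in Npy neurons. Within single Pomc libraries, Gad1 lay above Slc17a6 in replicate 1 and Slc32a1 lay above it in replicate 2.

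Ratios between members of the same library do not change with how the library was scaled, apart from an effect of the pseudocount, which grows where a member is low. Slc17a6 over Gad1 was 0.997, 1.02, 1.13 and 1.51 in Pomc replicates 1 to 4, nearly equal in replicates 1 and 2 and with Slc17a6 in excess in replicate 4. In the Npy libraries the ratio was 0.0355 and 0.0124, so that Gad1 was far in excess. On the log2 scale the difference between the groups was 5.29 (exact permutation p = 0.0667, the smallest it can give, 0.156 adjusted over 7 ratios). The ratio of the vesicular transporters, Slc17a6 over Slc32a1, was 1.29, 0.816, 1.43 and 2.08 in Pomc replicates 1 to 4 and 0.0471 and 0.00893 in the Npy libraries, a log2 difference of 5.53 with the same exact p values. Neither ratio overlapped between the groups.

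Ratios among the GABA genes overlapped between the groups. Gad1 over Gad2 was 4.78, 1.77, 2.94 and 1.79 in Pomc replicates 1 to 4 and 2.11 and 2.62 in the Npy libraries, a log2 difference of 0.11 with overlapping groups (exact permutation p = 0.933). Slc32a1 over the sum of Gad1 and Gad2 was 0.467 to 0.802 in the Pomc libraries and 0.512 and 1.00 in the Npy libraries (log2 difference -0.21, exact permutation p = 0.667). With 4 and 2 libraries these values do not show that the balance is the same. Abat over the sum of Gad1 and Gad2 was 2.21 to 2.85 in Pomc and 0.520 and 1.05 in Npy libraries, a log2 difference of 1.70 without overlap (exact permutation p = 0.0667, 0.156 adjusted over the 7 ratios).

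The dopamine genes did not keep a fixed balance in the Pomc libraries. Th over Ddc was 0.605, 2.27 and 0.0612 in Pomc replicates 1, 3 and 4, could not be formed in replicate 2, where Ddc is listed at 0, and was 5.90 and 8.40 in the Npy libraries. On the log2 scale with the pseudocount the groups overlapped (difference -2.44, exact permutation p = 0.333). Th over Slc18a2 was 2.58, 8.95, 26.1 and 0.473 in Pomc replicates 1 to 4 and 10.9 and 12.5 in the Npy libraries, with an exact permutation p of 0.2. The TPM ratios overlapped, since Pomc replicate 3 lay above both Npy libraries, whereas with the pseudocount all Pomc libraries lay below, on the log2 scale at 3.23 in Pomc replicate 3 against 3.31 and 3.51 in the Npy libraries. With a pseudocount of 0.1 the log2 difference was -1.83 for Th over Ddc and -1.56 for Th over Slc18a2, where a pseudocount of 1 gave -1.82. In both Npy libraries Th thus exceeded Ddc and Slc18a2, while among the Pomc libraries its relation to them varied from library to library.

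**Figure D4:**
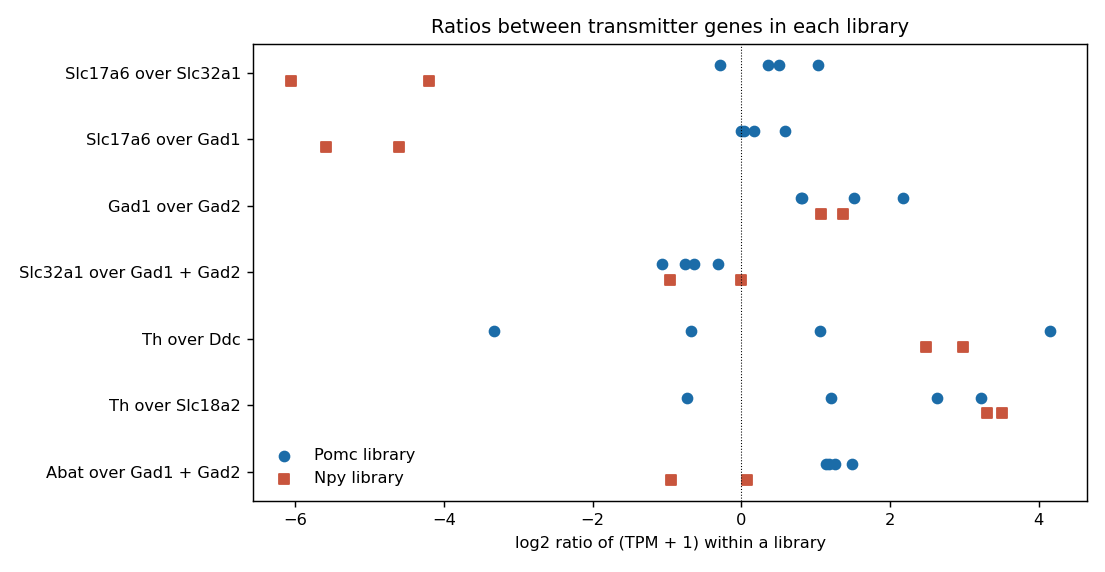
Log2 ratio of (TPM + 1) between members of the same library (horizontal axis) for 7 pairs (vertical axis); circles are the 4 Pomc and squares the 2 Npy libraries. Both ratios with Slc17a6 and that of Abat over Gad1 plus Gad2 are apart between the groups, Th over Slc18a2 only narrowly and only with the pseudocount, while Gad1 over Gad2 overlaps.

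Transcription factors known from the development of each kind of neuron were set beside the members. Of 14 factors of GABAergic neurons 11 were tested, and 10 had log2 fold changes below 0, beside 6748 of all 13845 tested genes. In 9 the groups did not overlap, with Npy higher, as in 7.86% of all tested genes. The list was chosen with earlier results of these data known, so these counts describe the list. Dlx1 alone passed, where 0.123% of all tested genes were called higher in Npy neurons. It stood at 10.9 to 23.8 TPM in Pomc and 119.5 and 138.5 TPM in Npy replicates 1 and 2 (limma adjusted p = 0.0131). Its adjusted p was 0.0578 without Npy replicate 1 and 0.26 without Npy replicate 2. Gsx1 stood at 0.538, 0.379, 4.06 and 8.25 TPM in Pomc replicates 1 to 4 and at 48.9 and 63.4 TPM in Npy replicates 1 and 2 (log2 -4.17 ± 0.85, adjusted p = 0.115). Isl1, a LIM homeobox factor of both populations, was at 365 to 466 TPM in Pomc and 637 and 601 TPM in Npy replicates 1 and 2 (adjusted p = 0.461).

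Of 13 factors of glutamatergic neurons, 9 were tested and 2 passed, both higher in Pomc neurons, as were 0.289% of all tested genes. Of the 9, 7 had log2 fold changes above 0 and 2, Tbr1 and Neurod2, below. The groups did not overlap in 5 with Pomc higher, as in 8.05% of all tested genes. In 1, Tbr1, they did not overlap with Npy higher (7.86% of all tested genes, log2 -2.76 ± 0.81, limma adjusted p = 0.373). Nhlh2 was at 90.3 to 161 TPM against 1.82 and 3.29 TPM (log2 5.16 ± 0.34), and Nr5a1, the ventromedial hypothalamus factor, at 118 to 167 TPM against 5.25 and 2.81 TPM (log2 4.79 ± 0.30), both with a limma adjusted p of 0.000524. Of 13 factors of dopamine neurons, 5 were tested and none passed by limma (3 at an unadjusted p under 0.05). Pbx3 was at 7.32 to 16.8 TPM in Pomc and 64.1 and 40.8 TPM in Npy replicates 1 and 2 (log2 -2.06 ± 0.48, adjusted p = 0.191). Meis2 had a log2 fold change of -2.03 ± 0.75 (adjusted p = 0.564). Lmx1a and Lmx1b, factors of midbrain dopamine neurons, were listed at 0 in all 6 libraries, and Nr4a2 did not exceed 3.54 TPM in any.

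Genes with the most similar pattern over the 6 libraries were found among 10425 other tested genes with at least 10 TPM in at least 2 libraries, by Pearson's r of log2(TPM + 1). With so many genes and 6 libraries that share depth and composition, high values of r arise in any case, and r is given as a description. For Slc17a6 these were Sox14 (r = 0.999), Rnf128 (0.997), Nell1 (0.995), Gpr149 (0.992) and Ppp2cb (0.992). Sox14, a SOX transcription factor, stood at 140.1, 123, 128.5 and 105 TPM in Pomc replicates 1 to 4 and at 4.38 and 0 TPM in Npy replicates 1 and 2. For Th they were Dhdds (0.996), Mapkapk5 (0.991), Cep57l1 (0.984), Itm2a (0.984) and Bai2 (0.982), each with a far smaller difference between the groups than Th. For Gad1 they were Wdr34 (0.986), Masp1 (0.986), Prim2 (0.978), Mdga1 (0.971) and Cbln4 (0.97). Among the members, Slc32a1 and Th had r = 0.982, Gad1 and Th 0.948, and Gad1 and Slc17a6 -0.836.

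Peptide genes of other hypothalamic neurons are given beside Th, since Th is also made by arcuate neurons other than Npy neurons. Ghrh, growth hormone-releasing hormone, was at 96.8 and 112 TPM in Npy replicates 1 and 2 and at most 0.296 TPM over the 4 Pomc libraries (limma adjusted p = 0.00265); without 1 of the Npy libraries it no longer met the filter. Sst, somatostatin, was at 2108 and 3187 TPM in Npy and at 433 to 653 TPM in Pomc libraries (adjusted p = 0.00345). Of the 10 peptide markers of other hypothalamic neurons 6 were tested, and these 2 passed, beside 0.123% of all tested genes called higher in Npy. The summed level of the 10 markers was 2234 and 3315 TPM in Npy and 509 to 666 TPM in Pomc libraries. The part of other neurons in the level of Th was not tested.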

How the data were processed

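RNA of sorted mouse neurons was sequenced from 1 ng of total RNA with a stranded total RNA kit, per the labels' protocols. The table deposited by the authors names no unit, and its values were taken as TPM because 6 of 7 columns sum to a fixed total and short RNA genes lead. HISAT2, edgeR 3.8 and mm10 are named in the submitters' processing notes, without roles. The counting tool, annotation, strand setting and read depth are not stated in these sources, and no counting error can be given.

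From the 18335 rows, 4 rows of repeated symbols were left out. Genes with at least 1 TPM in at least 2 of 6 libraries (13845) were tested with limma 3.58.1 (trend) in R 4.3.3 on log2(TPM + 1), a scale that understates changes of low genes, with Benjamini-Hochberg adjustment over all of them and a threshold of 0.05. The fit was also run on simulated data with independent normal noise and known changes in genes that were not low. The outcome of that run is not given here, and it does not bear on low genes. Exact permutation tests and ratios were computed in Python 3.11.15, with p adjusted over 7 ratios. Coordinates are from GENCODE M21 (GRCm38), the build of mm10, and start windows from RefSeq. Alternatives were 2 scalings, 2 pseudocounts, 2 filters, 2 prior variances, a block, all 7 columns and leaving out each library. Members and lists were chosen with earlier results of these data known. In each list, the genes named were those past the threshold, the 2 with the largest fold change and those with a group mean over 100 TPM, and other genes were named after their values were seen.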

Additional observations from a re-analysis of the deposited data

How the results depend on the processing

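All 8 members kept the sign of their log2 fold change under each of up to 16 alternatives. Slc17a6 ranged from 2.97 to 4.66 and was past the threshold in 15 of 16, with 3.92 after rescaling without short RNA genes. The same rescaling gave -1.43 for Gad1, -1.54 for Gad2, -1.67 for Slc32a1, 0.25 for Abat, -3.58 for Th, -1.17 for Ddc and -1.78 for Slc18a2. Gad1 ranged from -1.63 to -1.12, Slc32a1 from -1.82 to -1.26, Gad2 from -1.89 to -1.08, Th from -3.81 to -2.81, Slc18a2 from -2.16 to -0.94 and Abat from 0.10 to 0.51. Ddc ranged most for its size, from -1.90 (pseudocount of 0.1) to -0.09 (without Pomc replicate 2). Slc18a2 could not be fitted with the filter of 5 TPM in at least 3 libraries, which it does not pass.

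The number of members called was 1, and it became 2 with a pseudocount of 5 (Th added), 4 with all 7 columns (Gad1, Slc32a1 and Th added, on the same 2 Npy measurements), and 1 to 2 with a library left out. The replicate numbers of the labels were checked for pairing, and deviations from group means correlated at -0.044 for number 1 and -0.033 for number 2. With 2 Npy libraries the deviations of the pair mirror each other. This check therefore cannot decide whether samples of the same number belong together. With the replicate block 0 members were called by limma, and 5 had an unadjusted p under 0.05 (Slc17a6 at 3.89, adjusted p = 0.0667). Over all tested genes, 10 were then called higher in Pomc and 2 higher in Npy at an adjusted p under 0.05.

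Over all genes, the calls were 40 towards Pomc and 17 towards Npy neurons. The first count was 22 without a filter, 21 with 1 prior variance, 110 with all 7 columns and 20 to 68 with a library left out. The second was 8 with a pseudocount of 0.1, 11 without a filter, 5 with the stricter filter, 95 with all 7 columns and 1 to 19 with a library left out. The log2 difference of Gad1 over Gad2 ran from -0.17 to 0.28 with a library left out (negative without Pomc replicate 1, -0.17, or Npy replicate 1, -0.04), and that of Slc32a1 over Gad1 plus Gad2 from -0.70 to 0.27 (positive without Npy replicate 2). The cause of these changes was not tested. The other 5 ratios kept their sign.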
